A study of Homo sapiens with 12 samples.

Results

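The genes described here are the protein-coding genes on chromosomes 1 to 22 whose body, from the lowest to the highest coordinate in the RefSeq gene table of the hg38 assembly, is longer than 600 kb. There were 203 such genes. The rule left out 16 of them by name, the cadherin, protocadherin, potassium channel, forkhead, SOX and sidekick genes with ERBB4, ALK and PTPRN2, so that 187 of 19126 genes remained. Length and name chose them, and no measured value entered the rule. The body had a median length of 843 kb, from 603 kb for TMEM117 to 2474 kb for RBFOX1. Together the bodies covered 180 Mb, which was 14.9% of the 1210 Mb of protein-coding gene body and 6.27% of the 2874 Mb of chromosomes 1 to 22. Chromosome 3 held 25 of them and chromosome 2 held 17, while chromosome 19 held 0.

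Regions enriched for histone H3.1/H3.2, written H3.1 below, and for histone H3.3 came from chromatin immunoprecipitation followed by sequencing (ChIP-seq) in MCF10AER/vSrc cells. The parent line, MCF10A, is an established line of human breast epithelium that forms no tumours, and ER/vSrc is a v-Src oncoprotein made inducible by fusion to an estrogen receptor domain. Each histone was mapped in control cells and in cells taken 4 h or 24 h after D-alanine, a treatment that the series design links to reactive oxygen species formed in the nucleus. Every histone and time had 1 ChIP library and 1 input library, 12 samples in all.

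The labels give all groups the genotype WT and the D-alanine dose as 10 nM, which is doubtful because D-alanine is usually given to cells at millimolar concentrations. They name no enzyme that would act on D-alanine and no inducer of v-Src. All cells grew without phenol red in charcoal-stripped serum with EGF, insulin, hydrocortisone and cholera toxin. The region lists hold no expression values, so the cell line label was not checked. With 1 library per group, differences between conditions have no replicate check, and no test between them was made. The intervals given are exact 95% intervals, Poisson for counts and Clopper-Pearson for shares, and cover counting error only.

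Genes of this length consist almost wholly of introns. Many of them encode adhesion molecules, receptors and scaffolds of neurons, and many are transcribed weakly or not at all in epithelial cells. Several span common fragile sites, which are large late-replicating stretches that tend to break when DNA replication is slowed. H3.1 and H3.2 are placed on DNA mainly behind the replication fork by the chaperone CAF-1, whereas H3.3 is placed throughout the cell cycle, at active genes by HIRA and at repeats and telomeres by ATRX and DAXX.

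Depth was similar in the 6 ChIP libraries, between 16837079 and 19576955 tags, but the number of regions that the authors called on chromosomes 1 to 22 was not. The control, 4 h and 24 h lists held 44071, 7636 and 13265 regions of H3.1 and 9536, 3459 and 79625 of H3.3. The lists of H3.1 in control cells and of H3.3 at 24 h are called the long lists below, and the other 4 the short lists. A region missing from a list means only that none was called there.

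Promoter windows that met a region were few in these genes as over all genes. Their median number of the dinucleotide CG differed between long and short lists. RefSeq promoter windows of GRCh38.p14, from 250 bases before to 50 bases after a transcript start, were matched by symbol for 154 of the 187 genes, 369 windows in all. A region overlapped 11, 5 and 7 of these windows in the control, 4 h and 24 h lists of H3.1, and 11, 0 and 9 in those of H3.3. They came from 8, 5 and 7 genes for H3.1 and 9, 0 and 6 for H3.3. In some genes, such as GRM8, 1 region met several windows, so windows are not independent and the medians below rest on few genes. For H3.1 these were 2.98%, 1.36% and 1.9% of the windows, against 2.84%, 0.721% and 2.26% of all 33725 windows. For H3.3 they were 2.98%, 0% and 2.44%, against 1.36%, 0.231% and 5.03%. Among windows met in the short lists, the median number of CG was 30 in the H3.1 list at 4 h and 29 in that at 24 h. It was 25 in the control list of H3.3. In the long lists the median was 11 for H3.1 and 6 for H3.3, against 12 over all 369 windows. Over the windows of all genes that met a region, the medians were likewise higher in those short lists, at 20, 23 and 21, than in the long ones, at 7 and 6.

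The 3 windows of these genes that met a region in a pair of lists followed this difference in medians. They are given here 5′ to 3′ with every CG in capitals. CG reads the same on both strands, and 97.6% of the windows of the very long genes and 96% of all 33725 windows hold at least 1, so the number per window is what differs. ASIC2 (chr17:33293246-33293545, minus strand), which encodes an acid-sensing sodium channel subunit, has 29 CG in 300 bases. CALN1 (chr7:72337342-72337641, minus strand), which encodes a neuronal calcium-binding protein, has 25. SMYD3 (chr1:245988502-245988801, minus strand), which encodes a lysine methyltransferase, has 5.
ASIC2: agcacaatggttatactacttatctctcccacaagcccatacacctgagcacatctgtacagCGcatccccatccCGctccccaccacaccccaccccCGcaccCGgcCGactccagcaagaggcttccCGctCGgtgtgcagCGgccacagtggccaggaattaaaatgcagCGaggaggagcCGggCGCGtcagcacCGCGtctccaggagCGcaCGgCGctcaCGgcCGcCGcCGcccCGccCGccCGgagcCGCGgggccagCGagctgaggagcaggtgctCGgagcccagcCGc
CALN1: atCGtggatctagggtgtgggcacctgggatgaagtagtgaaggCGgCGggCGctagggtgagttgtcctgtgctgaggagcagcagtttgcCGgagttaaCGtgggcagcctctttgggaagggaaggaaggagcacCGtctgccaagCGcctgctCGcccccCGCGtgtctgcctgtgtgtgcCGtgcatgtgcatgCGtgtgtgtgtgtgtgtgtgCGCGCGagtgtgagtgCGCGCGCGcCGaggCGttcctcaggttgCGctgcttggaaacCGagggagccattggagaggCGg
SMYD3: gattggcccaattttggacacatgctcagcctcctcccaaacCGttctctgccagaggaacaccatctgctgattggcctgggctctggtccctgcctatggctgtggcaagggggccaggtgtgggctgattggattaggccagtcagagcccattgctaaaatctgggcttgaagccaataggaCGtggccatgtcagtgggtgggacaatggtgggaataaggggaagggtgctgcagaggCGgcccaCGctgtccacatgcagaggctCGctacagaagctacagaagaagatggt

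The ASIC2 window met an H3.1 24 h region of 910 bp with 21.4 normalised tags (tags per 10000000 of the library) and an H3.3 control region of 825 bp with 29 normalised tags. Their folds over input, the authors' own values here and below, were 5.53 and 5.35. The CALN1 window met an H3.1 24 h region of 500 bp at a fold of 4.57 and an H3.3 control region of 1300 bp at 6.02, the widest region that any of the very long genes had in that list. The CG-poor SMYD3 window met an H3.1 control region of 632 bp at a fold of 4.02 and an H3.3 24 h region of 772 bp at 5.2. Thus the CG-rich pair was met in short lists, and the CG-poor window in the long lists.

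Over their whole bodies, the very long genes held fewer regions per 100 kb than shorter genes in all 6 lists. In control cells H3.1 had 1445 regions in them, or 0.802 per 100 kb (0.761 to 0.845), against 2.1 over all gene bodies. At 4 h it had 213 regions, or 0.118 per 100 kb (0.103 to 0.135), against 0.366. At 24 h it had 356 regions, or 0.198 per 100 kb (0.178 to 0.219), against 0.675. The H3.1 density in very long genes was thus 0.382, 0.323 and 0.293 times that of all gene bodies.

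H3.3 had 234 regions in the very long genes in control cells, or 0.13 per 100 kb (0.114 to 0.148), against 0.485 over all gene bodies. At 4 h there were 103, or 0.0572 per 100 kb (0.0467 to 0.0694), against 0.159. At 24 h there were 2623, or 1.46 per 100 kb (1.4 to 1.51), against 3.59. The ratios were 0.268, 0.359 and 0.406. Their size depended on which regions and genes were counted. With every list cut to its 3459 regions of highest score, the ratio was 0.0941 for H3.1 at 24 h, in place of 0.293, and 0.101 for H3.3 in control cells, in place of 0.268. Among H3.1 regions of 24 h with a fold of 8 or more it was 0.65. For the 58 genes over 1000 kb it was 0.189 for H3.1 control and 0.244 for H3.3 24 h. All 6 densities were also below those outside gene bodies, which ran from 0.0921 per 100 kb for H3.3 4 h to 2.18 for H3.3 24 h.

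Density was lower in each longer class of genes. For H3.1 in control cells it was 3.18 regions per 100 kb in bodies up to 100 kb, 1.95 in those of 100 to 300 kb, 1.48 in those of 300 to 600 kb and 0.802 in the very long genes. For H3.3 at 24 h the same steps were 5.04, 3.55, 2.84 and 1.46. The other 4 lists followed the same order. The 16 genes left out by name, over 600 kb as well, held more than the very long genes when pooled, with 2.02 H3.1 control regions and 2.48 H3.3 24 h regions per 100 kb. A few of them held most of these regions. The highest counts of single genes were 106, 75 and 72 of their 318 H3.1 control regions, while several genes had 1 or 0. For H3.3 24 h the highest were 133, 65 and 59 of 391. Near the length limit the values varied from gene to gene. Just inside it PRELID2, ADGRV1 and TMEM117 held 3, 0 and 0 H3.1 control regions and 10, 3 and 1 H3.3 24 h regions. Just outside it STK3, SNX29 and AFF3 held 6, 27 and 11, and 10, 66 and 17.

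**Figure D1:**
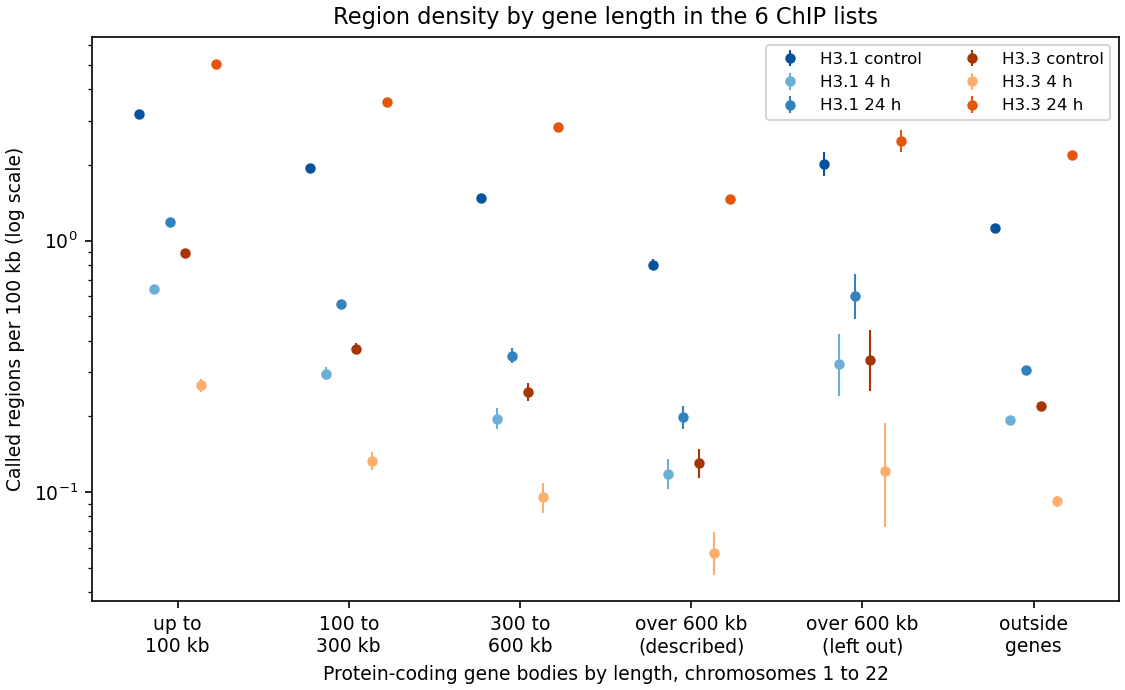
Called regions per 100 kb (y axis, log scale) for 6 sets of sequence on chromosomes 1 to 22 (x axis), 1 point per ChIP list, with bars for the exact Poisson 95% interval of the region number. In every list the very long genes lie lowest, at 0.802 for H3.1 control and 1.46 for H3.3 24 h.

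Pooled over the genes, the bodies also held fewer regions per 100 kb than the sequence beside them. Within 500 kb on either side, 0.777 times as many H3.1 control regions per 100 kb were found in the bodies as in the flanks, and 0.672 times as many H3.3 24 h regions. The other 4 lists lay between 0.615 and 0.734. Counted by gene, the body had the lower density in 121 of 187 genes for H3.1 control and in 135 for H3.3 24 h.

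Across the 187 genes, density followed the surroundings more than length. As a description over genes that share libraries, Spearman's rho of a gene's density with that of its flanks was 0.72 for H3.1 control and 0.77 for H3.3 24 h. With body length it was -0.17 and -0.23, and with the distance to the nearer chromosome end -0.40 and -0.30. The 62 genes with 0 to 6 protein-coding neighbours within 1 Mb held 0.216 H3.1 control and 0.55 H3.3 24 h regions per 100 kb. The 63 genes with 11 to 67 neighbours held 1.41 and 2.61.

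The long lists resembled each other most in which very long genes held regions, with a rho of 0.79 over 187 genes, against 0.24 to 0.47 for the other pairs of lists. Every other pair includes a short list, in which 57 to 128 of the 187 genes had no region and so were tied. The part of such ties in the lower values was not tested. In number, the H3.3 24 h regions in these genes were 1.82 times (1.7 to 1.94) the H3.1 control regions, against 1.71 times over all gene bodies. Overlap by position is a different measure and cannot be ranked against rho. Of the 1445 H3.1 control regions in very long genes, 469 met an H3.3 24 h region, which was 32.5% (30% to 34.9%), against 34% over the whole list. Of the 2623 H3.3 24 h regions, 17.5% (16.1% to 19%) met an H3.1 control region, against 18.7% over the whole list. Between short lists the shares ran from 0.843% to 5.63% in very long genes and from 1.62% to 8.41% over the whole lists. A share also depends on how many regions the list that is met holds, and the short lists hold fewer.

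For both histones the 4 h list was shorter than the control list and the 24 h list longer than the 4 h list, but only for H3.3 did 24 h exceed control. H3.1 had 0.147 times as many regions in the very long genes at 4 h as in control cells, and 0.246 times (0.219 to 0.277) at 24 h, against 0.174 and 0.322 over all gene bodies. H3.3 had 0.44 times (0.346 to 0.557) as many at 4 h, and 11.2 times (9.8 to 12.9) as many at 24 h, against 0.328 and 7.39. Over the whole lists the ratios of 24 h to control were 0.301 for H3.1 and 8.35 for H3.3. All of these ratios compare 1 library with 1 library.

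Gene by gene, 122 of the 187 held fewer H3.1 regions at 24 h than in control cells, 34 held more and 31 the same number. Fewer were held by 33.8% of all genes and by 60.1% of genes of 300 to 600 kb. For H3.3, 163 held more regions at 24 h than in control cells, 7 held fewer and 17 the same, where 50.8% of all genes and 88.1% of those of 300 to 600 kb held more. Both differences were seen in 116 genes, and in 27% of all genes and 57.1% of those of 300 to 600 kb. H3.3 at 24 h outnumbered H3.1 in control cells in 147 genes, was equal in 20 and fewer in 20, and it outnumbered H3.1 in 40.6% of all genes and 81.3% of those of 300 to 600 kb. A longer body has more room for a region, so the genes of 300 to 600 kb are the nearer background.

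For H3.1, 155 very long genes had at least 1 region in the control list, 94 in the 4 h list and 130 in the 24 h list. Over all genes the shares were 40.6%, 15.5% and 25.6%, and over genes of 300 to 600 kb 71.3%, 34.9% and 53.9%. For H3.3 the same lists had 113, 59 and 178 such genes, with 19.3%, 8.16% and 55.1% over all genes and 44%, 22.2% and 92.9% over those of 300 to 600 kb. A stricter count asked how many genes had a density above that of chromosomes 1 to 22. For H3.1 control these were 21 of 187, or 11.2%, against 33.7% of all genes and 24.3% of genes of 300 to 600 kb. For H3.3 24 h they were 28, or 15%, against 41.5% and 29.9%. The H3.1 list at 4 h had 21 such genes, against 14.7% and 21.8%, and that at 24 h had 16, or 8.56%, against 23.4% and 19.8%. H3.3 in control cells had 11, or 5.88%, against 18% and 16.4%, and at 4 h it had 32, or 17.1%, against 8.02% and 22.2%. Where lists are this short, 1 region is often enough to pass.

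A few genes held a large share of the regions. The 10 genes with most H3.1 control regions held 45.6% of them, and the 10 with most H3.3 24 h regions 32.3%. Without the 10 genes that had most regions over all lists, the density ratio to all gene bodies was 0.222 for H3.1 control and 0.296 for H3.3 24 h. The median gene had only 0.266 H3.1 control and 0.626 H3.3 24 h regions per 100 kb. A region in all 6 lists was found in 31 genes, or 16.6%, against 2.13% of all genes and 7.09% of those of 300 to 600 kb. In 2 genes, or 1.07%, no list had a region, against 31.1% and 2.05%. In 17 genes at least 1 long list had regions and the 4 short lists had none, a pattern of 28.2% of all genes and 19.4% of those of 300 to 600 kb.

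**Figure D2:**
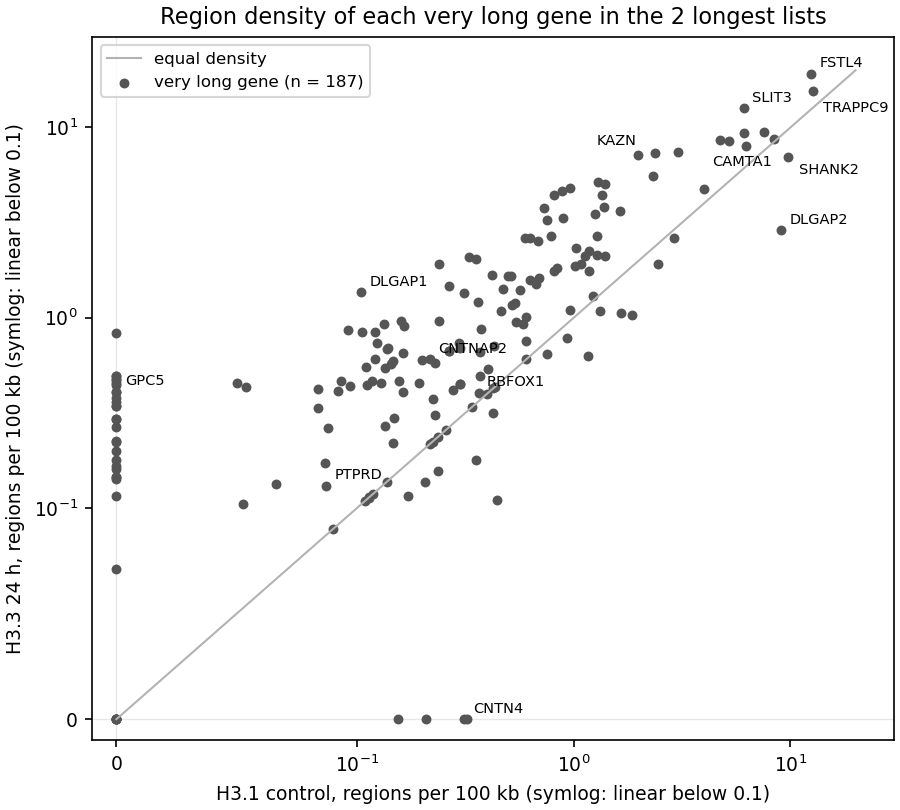
Regions per 100 kb in the H3.1 control list (x axis) and the H3.3 24 h list (y axis) for each of the 187 very long genes, 1 point per gene, on axes that are linear below 0.1 and logarithmic above, with a line of equal density. Most points lie above the line, 147 genes having more H3.3 24 h regions, and DLGAP2, SHANK2 and CNTN4 are among those below it.

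FSTL4 (chr5:133196455-133842067) had the highest H3.3 24 h density of all the very long genes. It encodes a secreted protein of the follistatin-like family. In control, 4 h and 24 h cells it held 81, 0 and 1 H3.1 regions and 0, 0 and 124 H3.3 regions. This was 12.5 H3.1 control and 19.2 H3.3 24 h regions per 100 kb, with almost nothing in the 4 short lists. Its widest H3.3 24 h region (chr5:133296604-133302101) spanned 5497 bp with 111 normalised tags at a fold of 7.69, and was the widest in any very long gene in that list. Cut into 4 equal stretches, the body had regions of both long lists in each, and the third from the lower-coordinate end held fewest, 7 for H3.1 and 13 for H3.3. Input tags were high as well, at 4.52 on average per H3.3 24 h region, against 2.2 over all very long genes, and the part of input depth in these counts was not tested.

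TRAPPC9 (chr8:139727725-140458579) had the highest H3.1 control density. It encodes a subunit of the TRAPP complex, which tethers vesicles on their way through the Golgi. In the same order it held 93, 7 and 10 H3.1 regions and 5, 2 and 113 H3.3 regions. The highest-scoring region of a very long gene lay in TRAPPC9 in both control lists and in that of H3.1 at 4 h, at folds between 4.16 and 5.3. Mean input was 3.64 tags per H3.1 control region, against 2.34 over all very long genes, and its part in the counts was not tested.

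SHANK2 (chr11:70467854-71253234), a scaffold of the postsynaptic density, was among the 3 densest genes in all lists but H3.3 24 h. It held 77, 25 and 22 H3.1 regions and 18, 11 and 55 H3.3 regions. No other very long gene had as many H3.1 4 h or H3.3 4 h regions. Unlike FSTL4, it held more H3.1 control than H3.3 24 h regions. Of 4 equal stretches from the lower-coordinate end, the third held fewest regions of the long lists, 9 for H3.1 and 6 for H3.3. The last held 23 H3.3 regions at 24 h but 1 in control cells and 0 at 4 h.

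DLGAP2 (chr8:737628-1708476) encodes another postsynaptic scaffold, a partner of the PSD-95 family, and starts 0.738 Mb from the end of the chromosome. It held 88, 13 and 27 H3.1 regions and 12, 7 and 28 H3.3 regions. With 0.5 added to each number, H3.3 24 h was 0.322 times H3.1 control, where most of the very long genes lay above 1. In the gene table its body contains 3 whole shorter genes, and the regions were not divided between them.

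CAMTA1 (chr1:6785454-7769706), a calmodulin-binding transcription activator, held 83, 10 and 7 H3.1 regions and 12, 6 and 86 H3.3 regions in control, 4 h and 24 h cells. The numbers in the long lists were close to equal. SLIT3 (chr5:168661740-169301139), a secreted ligand of Robo receptors in axon guidance, held 39, 3 and 1 H3.1 regions and 2, 1 and 81 H3.3 regions. With 0.5 added to each number, H3.3 24 h in SLIT3 was 2.06 times H3.1 control. AGAP1 (chr2:235494043-236131793), a GTPase-activating protein for Arf, held 39, 2 and 7 H3.1 regions and 9, 1 and 60 H3.3 regions. Its 1.41 H3.3 control regions per 100 kb were exceeded only in SHANK2.

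**Figure D3:**
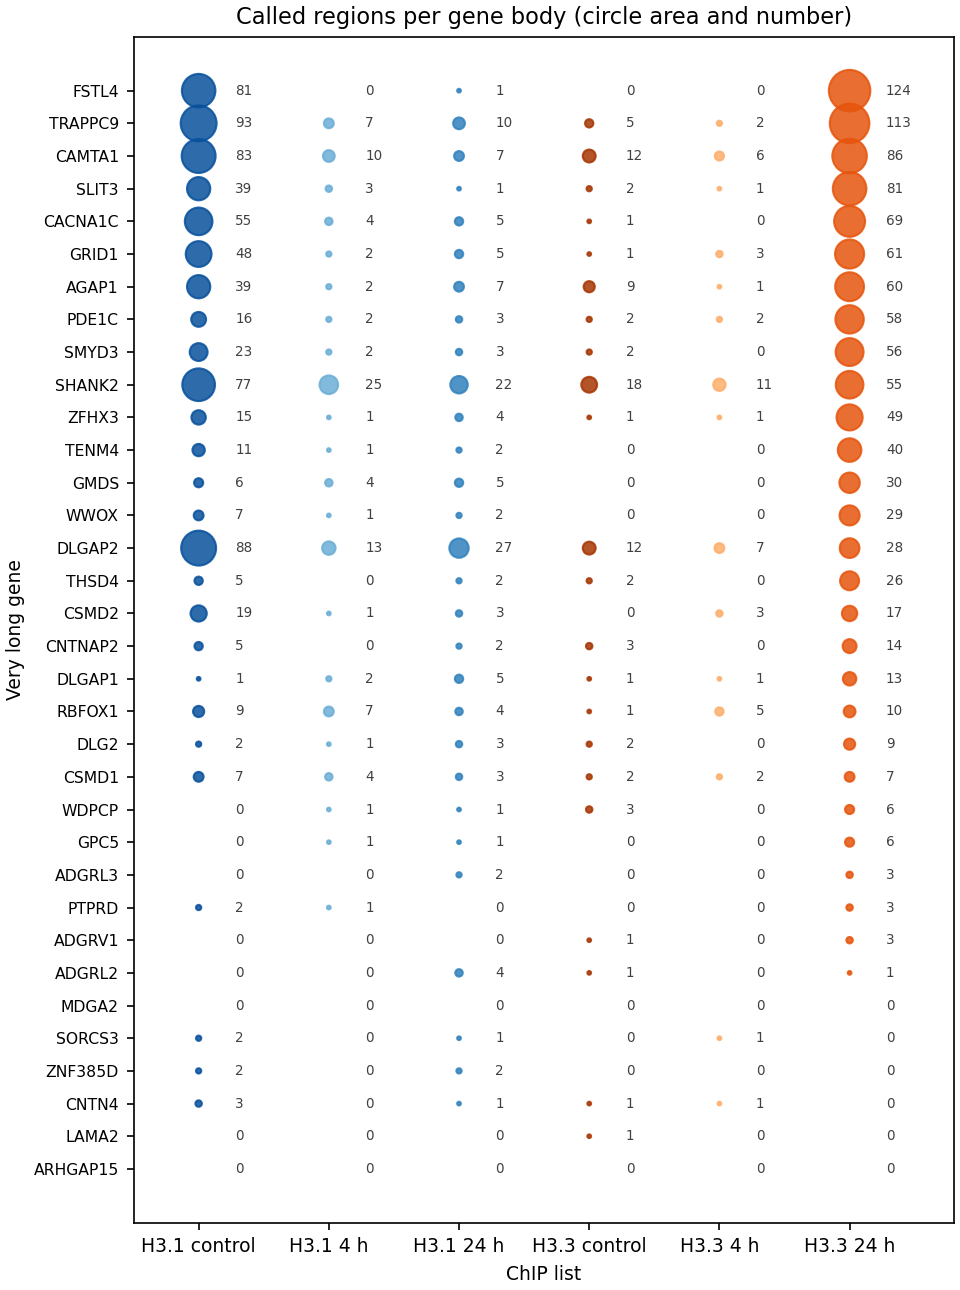
Number of called regions in 34 very long genes (y axis) in each of the 6 ChIP lists (x axis), with circle area and the printed number both giving the region number. FSTL4, TRAPPC9 and CAMTA1 stand out in both long lists at 81 or more regions, whereas ARHGAP15 and MDGA2 have 0 in every list.

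The 5 longest genes were sparse. RBFOX1 (chr16:5239721-7713340), which encodes a neuronal splicing factor, held 9, 7 and 4 H3.1 regions and 1, 5 and 10 H3.3 regions over 2474 kb. Its densities lay between 0.0404 per 100 kb for H3.3 in control cells and 0.404 for H3.3 at 24 h. CNTNAP2, a contactin-associated adhesion protein, held 5, 0 and 2 H3.1 regions and 3, 0 and 14 H3.3 regions. PTPRD, a receptor tyrosine phosphatase of synapses, held 2, 1 and 0 and then 0, 0 and 3, and its whole body of 2299 kb was empty in the H3.1 24 h and H3.3 control lists. DLG2, a membrane-associated scaffold of the PSD-95 family, held 2, 1 and 3 H3.1 and 2, 0 and 9 H3.3 regions. CSMD1, a membrane protein with CUB and sushi domains, held 7, 4 and 3 H3.1 and 2, 2 and 7 H3.3 regions, an equal number in the long lists.

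**Figure D4:**
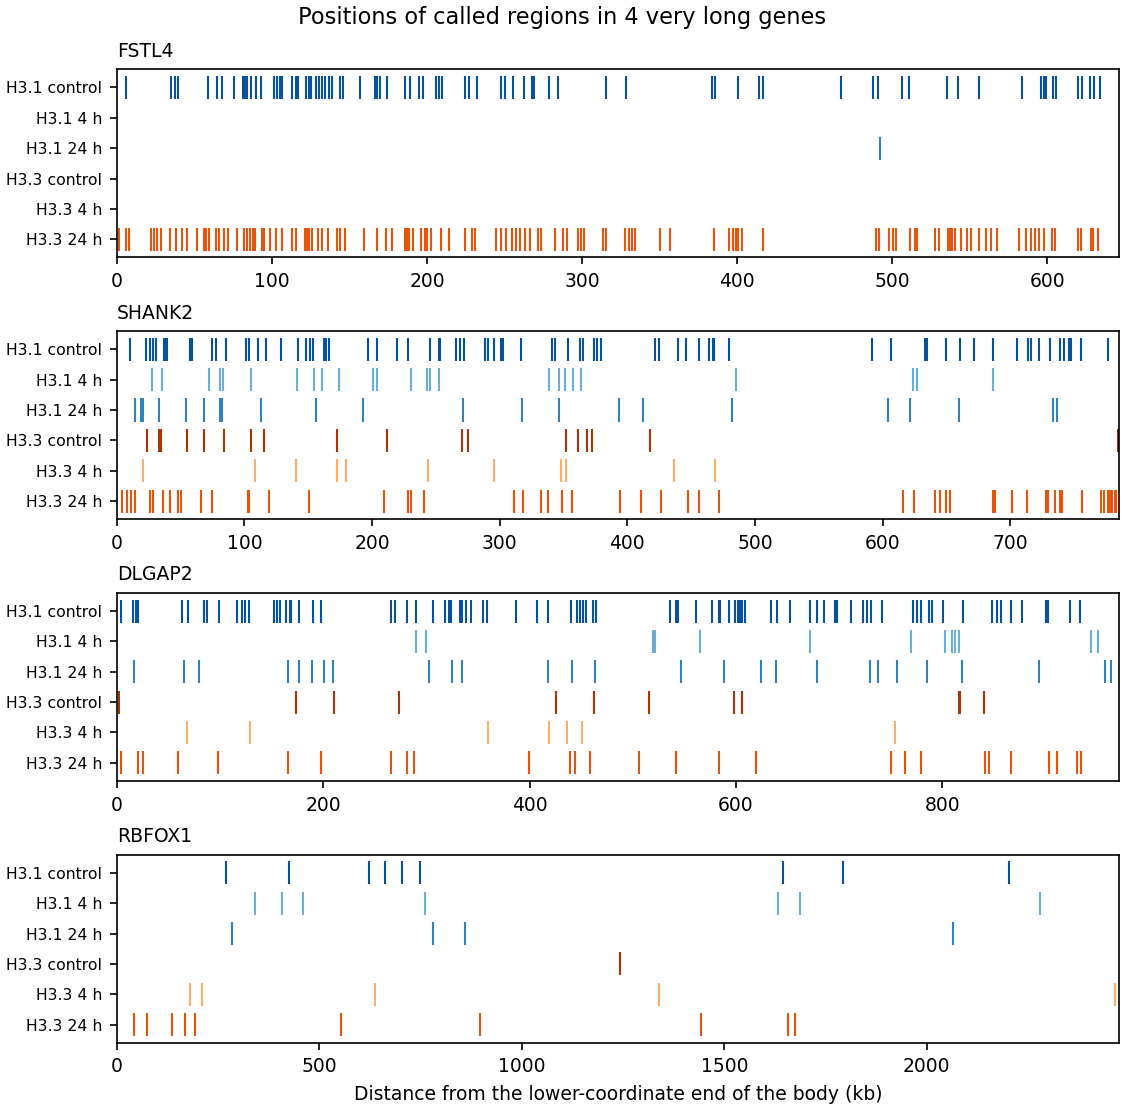
Positions of called regions along FSTL4, SHANK2, DLGAP2 and RBFOX1, as distance in kb from the lower-coordinate end of the body (x axis), with 1 row of ticks per ChIP list and 1 tick per region. FSTL4 is covered in both long lists and has 1 region in the other 4 lists together, while RBFOX1 has between 1 and 10 regions per list over 2474 kb.

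Some very long genes held next to nothing. ARHGAP15, a GTPase-activating protein for Rac, and MDGA2, a synaptic adhesion protein that binds neuroligins, had 0 regions in all 6 lists over bodies of 639 kb and 836 kb. LAMA2, a laminin alpha chain of basement membranes, had 1 region, in the H3.3 control list. There were 32 genes with 0 H3.1 control regions and 9 with 0 H3.3 24 h regions, and those named here come first by symbol. The adhesion receptors ADGRL2, ADGRL3 and ADGRV1 had 0 H3.1 control regions, and 1, 3 and 3 H3.3 24 h regions. ADGRL2 and ADGRL3, the latrophilins, had 4 and 2 H3.1 24 h regions. Numbers this small are close to the limit of what the lists can show for 1 gene.

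Genes at the far ends of the ratio between the long lists rested on small numbers. GPC5, a glypican that carries heparan sulfate, and WDPCP, a planar cell polarity effector needed for cilia, each had 0 H3.1 control and 6 H3.3 24 h regions. DLGAP1, a postsynaptic scaffold like DLGAP2, had 1 and 13. With 0.5 added to each number its ratio was 9, which other genes shared. At the other end CNTN4, a contactin, had 3 and 0, and SORCS3, a sorting receptor, and ZNF385D, a zinc finger protein, each had 2 and 0. Thus DLGAP1 and DLGAP2, genes of one family, lay on opposite sides of equality.

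Grouped by role, ion channel and scaffold genes had the highest pooled H3.1 control densities and fragile site genes the lowest. The groups below hold 145 of the 187 genes, were drawn up with earlier results of these data known, and overlap in part. The 34 genes of synaptic adhesion and axon guidance had 0.469 H3.1 control regions (0.402 to 0.544) and 0.862 H3.3 24 h regions (0.77 to 0.962) per 100 kb. Of them 24 had an H3.1 control region and 29 an H3.3 24 h region, against 82.9% and 95.2% of all very long genes. SLIT3 led this group, followed by the teneurin TENM4 with 11, 1 and 2 H3.1 regions and 0, 0 and 40 H3.3 regions. The median gene of the group had only 0.23 H3.1 control and 0.342 H3.3 24 h regions per 100 kb.

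The 17 genes for ion channels, transmitter receptors and their partners had 1.21 H3.1 control (1.05 to 1.4) and 1.62 H3.3 24 h regions (1.43 to 1.83) per 100 kb. CACNA1C, the pore subunit of an L-type calcium channel, held 55, 4 and 5 H3.1 regions and 1, 0 and 69 H3.3 regions. GRID1, a delta glutamate receptor, held 48, 2 and 5 and then 1, 3 and 61. These genes together accounted for most of the H3.1 control regions of the group, whose median gene had 0.426 per 100 kb. The H3.1 control region of a very long gene with the highest fold, 42.4, lay in CACNA1C (chr12:2362066-2363052), where the input had no tag and the authors' caller set 0.5.

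The 23 scaffold, junction and cytoskeleton genes had 1.09 H3.1 control and 1.6 H3.3 24 h regions per 100 kb. In each of the 4 short lists this group was the densest of all, at 0.221 and 0.378 per 100 kb for H3.1 and 0.234 and 0.109 for H3.3. SHANK2 and DLGAP2 carried most of this, with 25 and 13 of the group's 51 H3.1 regions at 4 h, and the median gene of the group had 0 in both 4 h lists. The 16 transcription and RNA regulators, led by CAMTA1, had 0.995 and 1.74 in the long lists. ZFHX3, a homeobox and zinc finger factor, held 15, 1 and 4 H3.1 regions and 1, 1 and 49 H3.3 regions. The 14 signalling enzymes and exchange factors had 0.686 and 1.47, and their leading genes were SMYD3, with 23 and 56 regions in the long lists, and PDE1C, a calmodulin-dependent phosphodiesterase, with 16 and 58.

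The 21 genes for trafficking, metabolism and genome maintenance had 0.836 H3.1 control and 1.92 H3.3 24 h regions per 100 kb. After TRAPPC9, this group was led by GMDS, the enzyme that starts GDP-fucose synthesis from GDP-mannose, with 6, 4 and 5 H3.1 regions and 0, 0 and 30 H3.3 regions. The 18 genes for matrix, proteoglycans and glycosylation were sparse, at 0.361 and 0.79. CSMD2, with CUB and sushi domains, held 19, 1 and 3 H3.1 and 0, 3 and 17 H3.3 regions, and THSD4, a microfibril-associated matrix protein, held 5, 0 and 2 and then 2, 0 and 26.

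The 21 common fragile site genes were the sparsest group in the long lists when their bodies were pooled, with 0.255 H3.1 control regions (0.2 to 0.321) and 0.65 H3.3 24 h regions (0.56 to 0.751) per 100 kb. Their bodies were long even here, at 28.6 Mb for 21 genes, against 23 Mb for the 23 scaffold, junction and cytoskeleton genes. The 58 very long genes over 1000 kb had 0.397 and 0.876 regions per 100 kb in the long lists. The part of length was not tested. The median fragile site gene had 0.137 H3.1 control regions per 100 kb, close to the 0.139 of the scaffold group. It had 0.465 H3.3 24 h regions, above the 0.342 of synaptic adhesion. In the long lists 0 of 21 exceeded the density of chromosomes 1 to 22, against 11.2% and 15% of all very long genes. At least 1 region was held by 19 of 21 for H3.1 control and 20 of 21 for H3.3 24 h, against 82.9% and 95.2% of all very long genes. WWOX, an oxidoreductase with WW domains at a fragile site of chromosome 16, held 7, 1 and 2 H3.1 regions and 0, 0 and 29 H3.3 regions. FHIT, the gene of a much-studied fragile site on chromosome 3, which was picked after its values were seen, held 1, 2 and 1 and then 1, 0 and 2.

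Median fold over input in the very long genes was 6.5 for H3.1 control, against 5.93 in other gene bodies, 5.17 against 4.66 for H3.1 at 24 h and 8.18 against 7.19 for H3.3 at 24 h. In the other lists it was equal, at 4.73 for H3.1 at 4 h and 4.63 for H3.3 in control cells, or lower, at 4.73 against 4.81 for H3.3 at 4 h. A fold of at least 8 was reached by 39.4% of H3.1 control regions (36.8% to 42%), against 32.7% in other bodies. For H3.1 24 h the shares were 16% (12.4% to 20.2%) and 6.81%, and for H3.3 24 h 51.5% (49.5% to 53.4%) and 44.4%. Mean input tags per region were lower in very long genes than in other bodies in all 6 lists. They were 2.34 against 2.7 in the H3.1 control list, 3.06 against 4.2 in that of H3.1 at 24 h and 2.2 against 2.56 in that of H3.3 at 24 h. Where the median fold was equal or lower, input was lower too. It was 3.3 against 4.16 for H3.1 at 4 h, 3.54 against 4.92 for H3.3 in control cells and 3.2 against 3.75 for H3.3 at 4 h. Regions with no input tag made up 17.3% of the H3.3 24 h regions in very long genes and 12% of those in other bodies. Median normalised tags were lower in very long genes in all 6 lists, for example at 8.94 against 12.8 for H3.3 in control cells, 8.58 against 9.11 in the H3.1 control list, 8.91 against 11.3 in the H3.1 list at 24 h and 8.68 against 9.19 in the H3.3 list at 24 h. The part of low input in the folds was not tested.

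The region with the highest fold of any very long gene, 77.9, lay in TENM4 in the H3.3 24 h list (chr11:78746152-78747692), with 38.9 scaled ChIP tags over an input without tags. Highest folds in the short lists were also reached without an input tag, at 26.5 in MACROD2 and 40.9 in ZNF385D for H3.1 at 4 h and 24 h, and at 33.3 in CAMTA1 and 25.9 in RBFOX1 for H3.3 in control cells and at 4 h. The highest-scoring H3.3 24 h region lay in SUGCT, a glutarate CoA-transferase, at a fold of 11 over 3 input tags. In H3.1 control the widest region, 3274 bp at a fold of 5.8 over 20 input tags, lay in RPS6KC1, a kinase-like protein of endosomes. Such wide regions were uncommon, since 5.54% of H3.1 control and 7.47% of H3.3 24 h regions in these genes exceeded 1 kb.

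Gaps between regions were shorter in the long lists, which hold more regions. The median gap between neighbouring regions of 1 gene was 12.1 kb for H3.1 control and 11.6 kb for H3.3 24 h, with 45.2% and 45.9% of gaps under 10 kb. In the short lists the median gap was 83.7 kb to 108 kb, and 8.89% to 22.7% of gaps were under 10 kb. Long stretches were empty all the same. The longest without an H3.1 control region was 1639 kb in CTNNA3, an alpha catenin, and the longest without an H3.3 24 h region was 1270 kb in NRXN3, a neurexin. In the short lists the whole body of CNTNAP2, 2304 kb, was empty at 4 h for both histones.

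Most positions were in 1 list, as over the whole lists. Merged over the 6 lists, the regions of the very long genes made 4379 separate loci, of which 3820 were in 1 list, 542 in 2, 14 in 3 and 3 in 4. Loci in 1 list made up 87.2% here and 85.6% on chromosomes 1 to 22, and those in 2 lists 12.4% and 13.6%. The loci in 4 lists lay in CAMTA1 (chr1:7451678-7452614), GMDS (chr6:1642630-1644175) and DPP6 (chr7:154591761-154593004), a potassium channel partner. All 3 were in both long lists and in that of H3.1 at 4 h. CAMTA1 and DPP6 were also in the H3.3 4 h list, and GMDS in the H3.1 24 h list. Folds there were 4.02 to 8.04 in CAMTA1, 4.13 to 10.6 in GMDS and 4.02 to 4.73 in DPP6. Merging can join regions that do not overlap each other. In GMDS the H3.1 24 h region ended at 1643130, before the H3.1 4 h region began at 1643675. In DPP6 the H3.3 4 h region began at 154592504, after the H3.1 control region ended at 154592422. Only in CAMTA1 did the regions of all its lists share bases.

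Where strand was known, for 154 genes, the regions of the long lists lay more often toward the 3′ end. In H3.1 control 7.62% of 1011 regions (6.06% to 9.43%) lay in the tenth of the body nearest the 5′ end and 14.1% (12.1% to 16.4%) in the tenth nearest the 3′ end. In H3.3 24 h the shares of 2123 regions were 7.68% (6.58% to 8.89%) and 15.9% (14.4% to 17.5%), where even placement gives 10%. Some of the 10 genes with most regions had no known strand and were never in this count. Without the others, which left 148 genes, the tilt remained. The shares were then 8.94% and 15.9% for H3.1 control and 8.62% and 17.3% for H3.3 24 h. Regions of 1 gene share their place and are not independent, so these intervals are narrower than the spread between genes.

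Most short lists differed from the long lists in the share of their regions near the 5′ end. The tenth of the body nearest the 5′ end held 12% (7.27% to 18.3%) of H3.1 regions at 4 h and 16.7% (12.3% to 22%) at 24 h. For H3.3 it held 17.4% (12.1% to 24%) in control cells and 11.8% (5.22% to 21.9%) at 4 h. Both 4 h intervals include the 10% of even placement. In the same order, the tenth nearest the 3′ end held 12.7%, 12.2%, 14.5% and 17.6%. Within 2 kb of the 5′ end lay 10 H3.1 4 h, 12 H3.1 24 h and 11 H3.3 control regions, or 6.67%, 4.9% and 6.4%. The long lists had similar numbers there, 9 for H3.1 control and 9 for H3.3 24 h. Of their larger totals these were 0.89% and 0.424%, so the shares differed and the numbers hardly did. H3.3 4 h, with 68 regions, had 1.47% there (0.0372% to 7.92%). Lists with the shares highest near the 5′ end were thus the ones whose met promoter windows had the highest median number of CG.

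**Figure D5:**
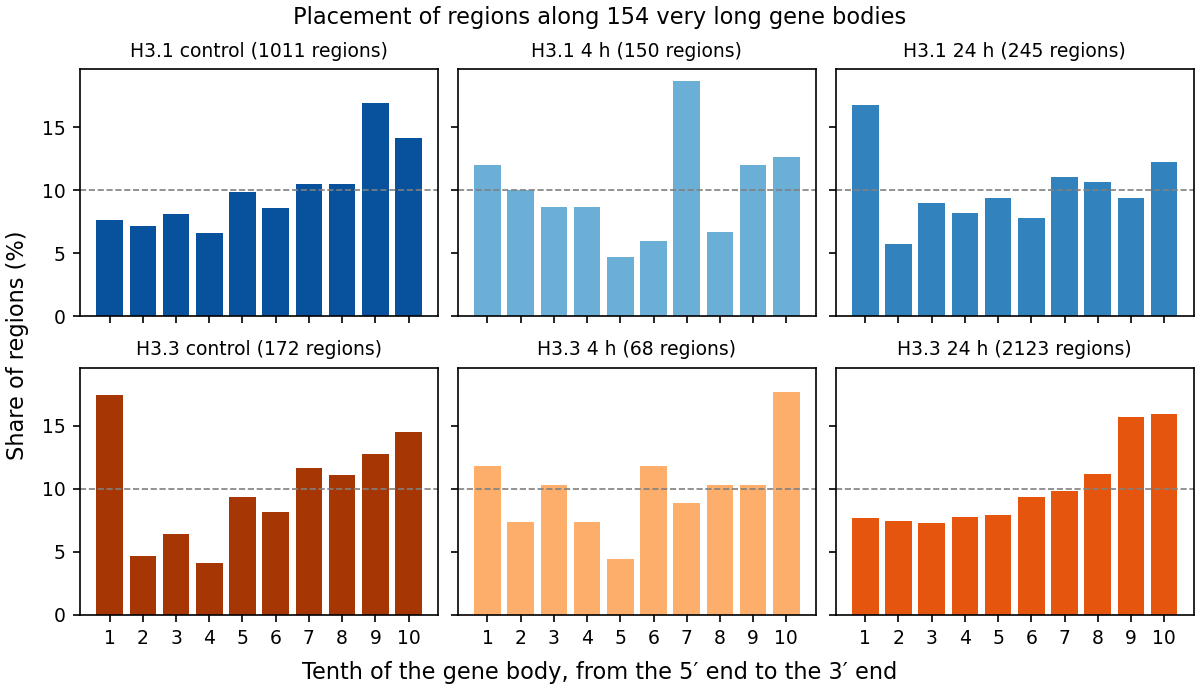
Share of regions (y axis, percent) in each of 10 equal stretches of the gene body from the 5′ end to the 3′ end (x axis), pooled over 154 very long genes with known strand, 1 panel per ChIP list, with a dashed line at the 10% of even placement. In the panels of the long lists the bars nearest the 3′ end are higher than those nearest the 5′ end, 14.1% against 7.62% and 15.9% against 7.68%, and the first bar is the highest for H3.3 control at 17.4%.

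By chromosome, the very long genes of chromosomes 5 and 1 were the densest in the H3.3 24 h list, at 3.58 and 3.32 regions per 100 kb, and those of chromosomes 9 and 20 the sparsest, at 0.415 and 0.454. In the H3.1 control list chromosomes 17, 5 and 8 were the densest, at 1.93, 1.85 and 1.81. Mean input tags per H3.3 24 h region in these genes were highest on chromosomes 5 and 8, at 3.22 and 2.87, against 1.52 to 2.43 on the others. Single genes weighed heavily in these values. FSTL4 held 124 of the 291 H3.3 24 h regions on chromosome 5, at a mean input of 4.52 tags. TRAPPC9 held 113 of the 197 on chromosome 8, at 3.37 tags. In the H3.1 control list TRAPPC9 and DLGAP2 held 93 and 88 of 204 regions on chromosome 8. LRRC37A2 held 27 of 49 on chromosome 17. Copy number of these chromosomes was not measured here, and its part in the densities was not tested.

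Some bodies are long because of the annotation. The gene table gives RANBP2, a nuclear pore protein, a body of 1123 kb that contains 5 whole other genes, LRRC37A2 one with 6 and GPHN, the receptor anchor gephyrin, one with 12. RANBP2 held 53, 7 and 14 H3.1 regions and 6, 1 and 96 H3.3 regions, and was chosen for naming after its values were seen. Without the 5 genes that contain 2 or more whole others, the density relative to all gene bodies was 0.343 for H3.1 control and 0.384 for H3.3 24 h.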

How the data were processed

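The 12 samples are 6 ChIP and 6 input libraries of single-end 50-base reads, per the labels' protocols. The submitters' processing notes name cutadapt 3.7, Bowtie2 2.4.1, HOMER 4.11.1 and hg38. Per the file headers, the authors called regions separately in each ChIP library against an input, with regions sized 500 bp, at least 1000 bp apart, a fold over input of 4 and a p-value over input of 1e-04. The deposited signal of a region is its tag number per 10000000 tags. The deposited score is HOMER's and is not adjusted for depth. The deposited fold is the ratio of ChIP to input tags at equal depth, and the p-value per region is the authors' own. A fold over an input with no tag rests on the 0.5 tags that the deposited lists give there.

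From the region coordinates, regions overlapping a body by 1 bp were counted with Python 3.11.15, numpy 2.4.6, pandas 2.3.3 and scipy 1.17.1. Bodies came from the RefSeq table of GRCh38.p14, and strand from the RefSeq promoter windows. The density code was tested on simulated data. Figures were drawn with matplotlib 3.10.9. No test between conditions was made, since each group has 1 ChIP library.

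Named genes are the 3 densest per list, the 3 sparsest in each long list, the 5 longest, the 3 with the highest and the 3 with the lowest ratio of H3.3 24 h to H3.1 control, the leading pair of each of 8 gene groups and those with no region, with ties broken by symbol. Regions named are those with the highest fold, the highest score or in most lists. Widest regions, recurring loci, promoter windows and further genes were picked after their values were seen. The genes, gene groups and alternatives were chosen with earlier results of these data known. Alternatives changed the length limit, the reference, the fold, list length, overlap, body ends, chromosomes and the genes included. Exon structure and genome sequence were not used here, and single results of a few named genes are not reported here.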

Additional observations from a re-analysis of the deposited data

Results flagged for a closer look

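The number of regions in the very long genes moved in opposite directions for the histones between control cells and 24 h after D-alanine. On the log2 scale the ratio of region numbers, 24 h over control, was -2.02 for H3.1 and 3.49 for H3.3. Each ratio rests on 1 library per group, so the difference between the histones was not tested. The same directions held over all gene bodies, with ratios of 0.322 for H3.1 and 7.39 for H3.3.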

How the results depend on the processing

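No paired analysis was possible because each histone and time had 1 ChIP library. Under the alternatives run, all 72 density ratios stayed below 1, from 0.0941 to 0.65. Of 98 alternative values in all, 30 lay inside the counting interval of the reported value and 68 outside it. Values follow in the order H3.1 control, 4 h, 24 h, then H3.3 control, 4 h, 24 h. Assigning regions by midpoint or counting base pairs covered left the ratios inside their intervals. With the 58 genes longer than 1000 kb, regions per 100 kb were 0.397, 0.0812, 0.154, 0.0996, 0.0394 and 0.876, and the ratios to all gene bodies 0.189, 0.222, 0.228, 0.205, 0.247 and 0.244. With the left-out genes kept, the densities were 0.9, 0.135, 0.23, 0.147, 0.0623 and 1.54 and the ratios 0.429, 0.368, 0.341, 0.302, 0.391 and 0.429. Ratios for regions of fold 8 or more were 0.455, 0.387, 0.65, 0.478, 0.47 and 0.466. For the 3459 highest-scoring regions of each list they were 0.255, 0.207, 0.0941, 0.101, 0.359 and 0.286, all below 1, and the order of the lists changed. Without 10 kb at either end of a body they were 0.454, 0.409, 0.395, 0.366, 0.433 and 0.458. Without chromosomes 1, 5, 7 and 8, which left 140 genes, they were 0.288, 0.269, 0.245, 0.221, 0.269 and 0.333. Relative to chromosomes 1 to 22 they were 0.523, 0.445, 0.428, 0.392, 0.475 and 0.526. Further alternatives were added after seeing the data. Relative to the gene bodies of each gene's own chromosome the ratios were 0.424, 0.375, 0.333, 0.312, 0.414 and 0.442. Without the 5 genes that contain 2 or more whole others they were 0.343, 0.294, 0.26, 0.244, 0.328 and 0.384. Without the 10 genes with most regions over the 6 lists, chosen on their values, the densities were 0.466, 0.081, 0.15, 0.1, 0.042 and 1.06 and the ratios 0.222, 0.222, 0.222, 0.207, 0.264 and 0.296. In very long genes, 28.8% of H3.1 regions of control cells met an H3.3 region of 24 h when the overlap had to cover 50% of the shorter region, and 17.8% did among regions of fold 8 or more. The cause was not tested for any of these shifts. Regions of all lists rest on few tags, with a mean input of 2.2 to 3.54 tags per region in very long genes, and with 103 regions in 187 genes the H3.3 4 h list gives little about single genes.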
